A study of Mus musculus with 10 samples.

Results

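The 36 genes described here encode the T cell receptor complex, its signalling proteins and the surface receptors and transcription factors that define T cells. They were taken from a named list of genes grouped by function, and every probe of the arrays that the files name for one of them, under its current or an older symbol, was counted. All 36 genes were on the array, through 63 probes, out of 27670 genes and 41174 probes in all. Total RNA was measured in whole lungs of 5 p53-null and 5 wild-type mice. All 10 were 8-week-old male mice, labelled C57BL/6J in both groups, that had breathed aerosolised saline for 30 min, so every group is a baseline without infection. The labels give the p53 genotype but not which Trp53 allele the mice carried, nor whether the wild-type mice were littermates. The design text calls the 5 samples of each group biological replicates, and each sample was hybridised to 1 single-colour array.

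A T cell recognises antigen through a receptor whose variable chains carry no signalling domain of their own. The CD3 chains and the zeta chain pass the signal inward when the kinase Lck, brought close by the coreceptors CD4 or CD8, phosphorylates them and ZAP-70 binds, after which the adaptor LAT gathers the proteins that open the calcium, Ras and NF-kappaB branches. Lungs hold T cells in the vessels, in the tissue and in small lymphoid aggregates, and many of the receptors below set how these cells settle, survive and are costimulated.

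The arrays differed in quality. The share of spots well above background ran from 71.4% to 84.0%. Levels are given as log2 signal relative to the 75th percentile of the same array, and replicates are listed in the order 1 to 5. The 10-spot Trp53 probe lay at -3.15 to -2.66 in p53-null lungs, against -1.67 to -1.43 on wild-type arrays 1 to 4 and -2.22 on wild-type array 5, without overlap. A second Trp53 probe lay at 0.13 to 0.65 in p53-null lungs, against -0.34 to 0.01 on wild-type arrays 1 to 4, all below the p53-null lungs, and 1.24 on wild-type array 5. Where these probes lie relative to the deleted part is not given. All 10 lung markers, among them the surfactant gene Sftpc and the club cell gene Scgb1a1, were well above background on every array. Skeletal muscle markers stood high on p53-null arrays 4 and 5 and on wild-type array 2. Without wild-type array 5 the number of genes called over the whole array was 6619, against 1581 with it, and without p53-null array 3 it was 192. Wild-type array 5 had the lowest median signal of the arrays (277.6, with the highest at 501.7). Its departure from the mean of wild-type arrays 1 to 4 correlated with probe GC content (share of G and C bases). The correlation was 0.40 over 30852 probes and 0.23 over the 34 tested members, and its part in the results below was not tested.

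Most of the tested T cell genes of the list were higher in p53-null lungs. Of the 34 members that could be tested, 20 rose and none fell, at an adjusted p below 0.05 (limma, Benjamini-Hochberg over all 21116 tested genes). Over all tested genes 4.59% rose and 2.89% fell. At an unadjusted p below 0.05, 26 of the 34 members were higher and 0 lower, against 15.2% of all genes higher and 12.4% lower. The called members differed by 0.45 (Lef1) to 1.35 (Skap1) on the log2 scale, which is 1.37-fold to 2.54-fold. The median over the 34 members was 0.75, beside 0.05 over all tested genes, and 32 of 34 differences were positive. Ctla4, an inhibitory receptor, and Rag1, the recombinase of receptor genes, were not well above background on any array, so no level or fold is given for them. Of the tested members 32 were well above background on all 10 arrays, and the exceptions were Cd28 (9 arrays) and Foxp3 (5 arrays). No member passed the signal filter through 1 group alone. In whole-lung RNA, more T cells and more RNA of these genes per cell cannot be told apart.

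**Figure D1:**
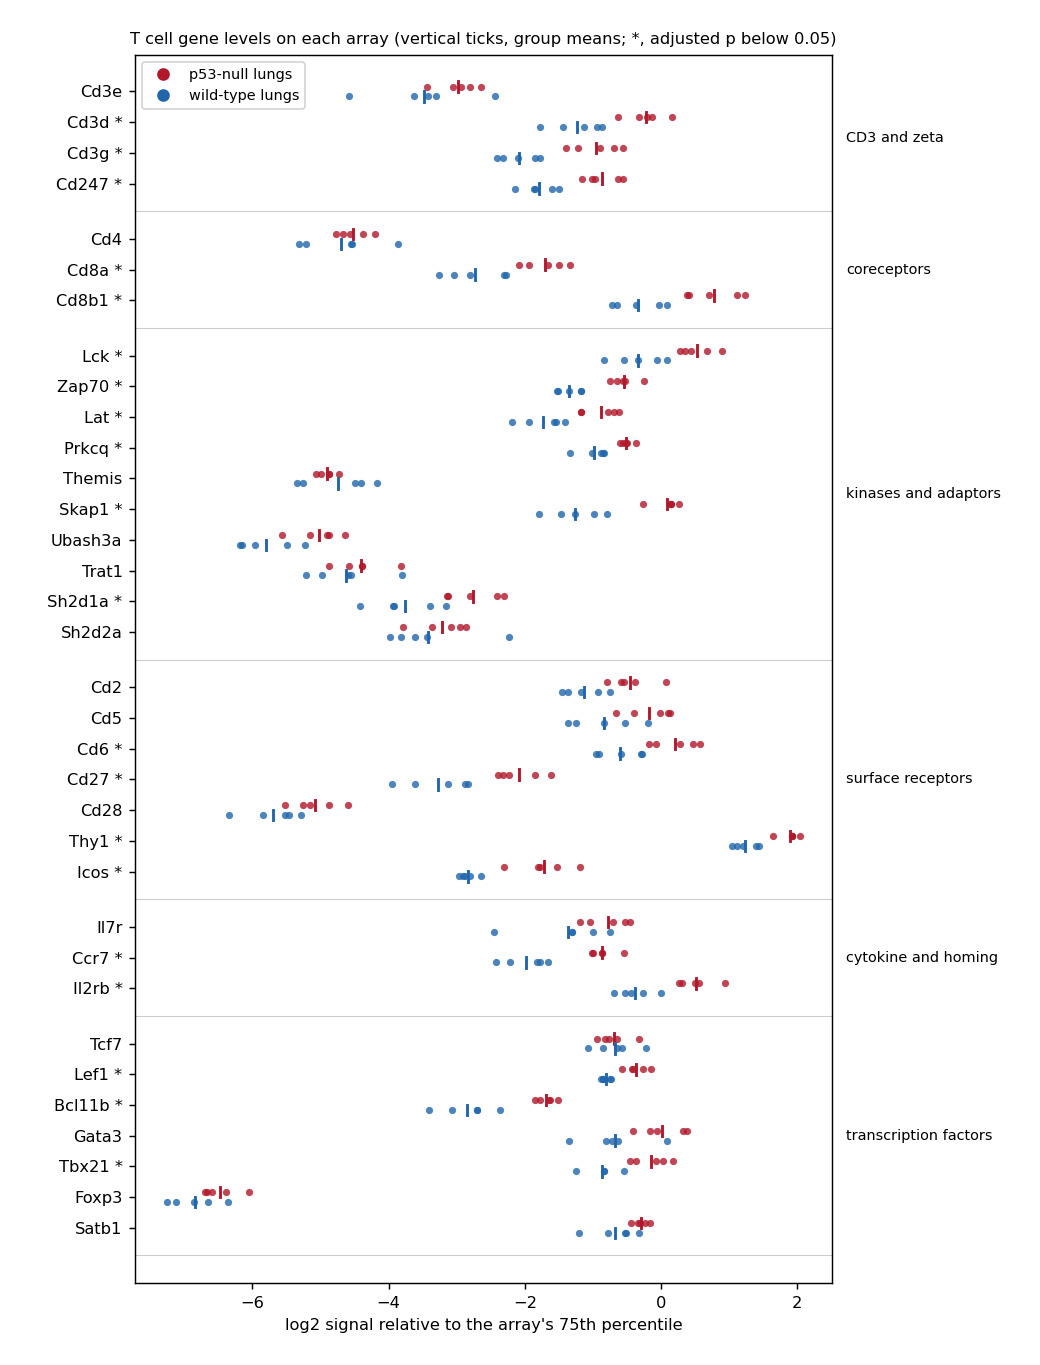
Level of each of the 34 tested T cell genes on each array, as log2 signal relative to the array's 75th percentile (horizontal axis), with p53-null lungs above wild-type lungs in each row. Points are arrays, vertical ticks are group means and asterisks mark the 20 genes with an adjusted p below 0.05. For 19 of the 33 genes with 10 values, every p53-null point lies to the right of every wild-type point.

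The groups did not overlap, with all p53-null lungs above all wild-type lungs, for 19 of the 33 members measured on all 10 arrays, where 5.44% of all genes did so. All 19 were called. Tbx21 is the called member outside this count, because its spot on wild-type array 3 carried an outlier flag and was left out. P53-null array 1 held the highest value for 13 of the 33 members, p53-null array 3 for 9, p53-null array 2 for 3 and p53-null array 5 for 2, against wild-type array 5 for 5 and wild-type array 2 for 1. The lowest value was on wild-type array 3 for 16 members, on wild-type array 5 for 11 and on wild-type array 1 for 6, so no member was lowest in a p53-null lung.

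**Figure D2:**
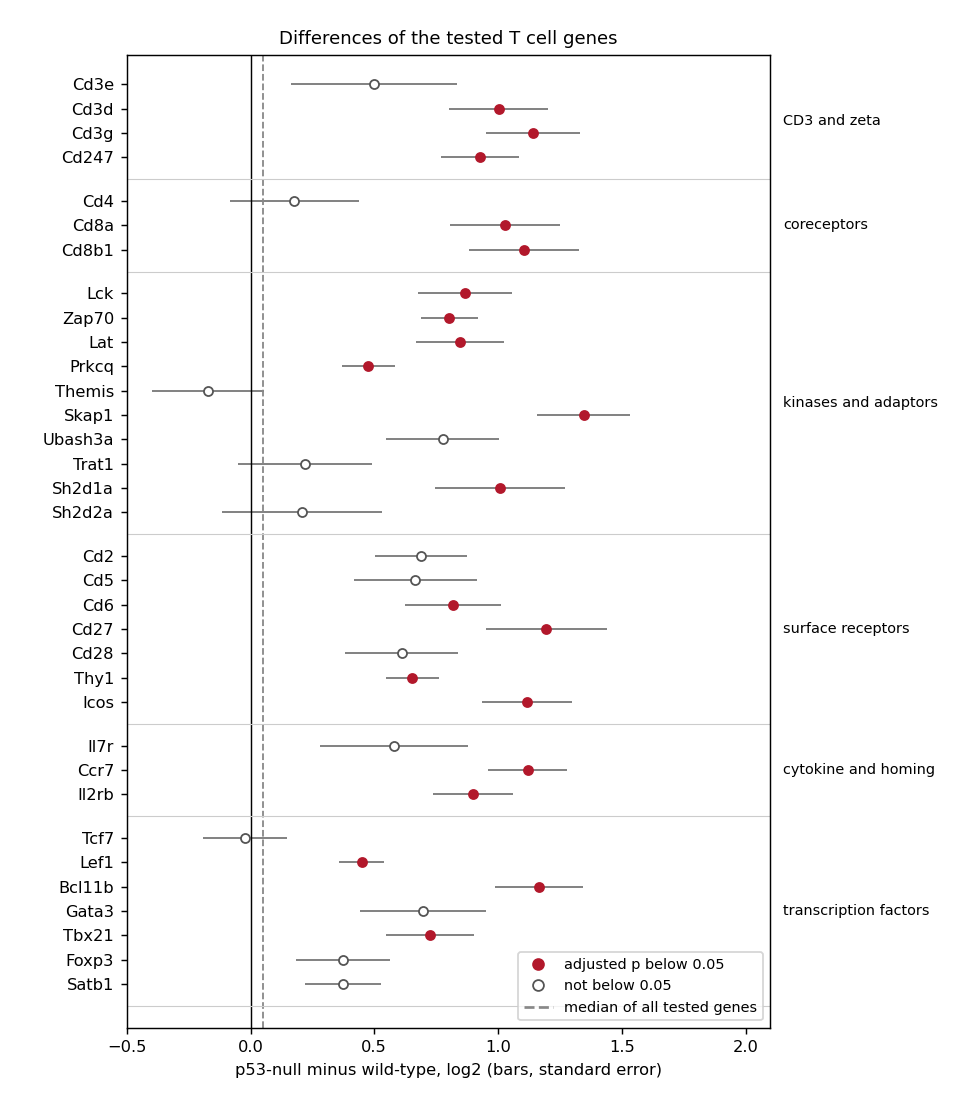
Difference between p53-null and wild-type lungs for the 34 tested T cell genes (log2, horizontal axis), grouped by role, with bars of 1 standard error and n = 5 arrays a group (4 wild-type arrays for Tbx21). Filled points have an adjusted p below 0.05, and the dashed line is the median of all tested genes at 0.05. The filled points lie between 0.45 and 1.35.

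Among the chains that carry the receptor's signal, 3 of 4 rose, each about 2-fold. Cd3d and Cd3g encode the delta and gamma chains that pair with epsilon, and Cd247 the zeta chain that recruits ZAP-70. Cd3g was at -0.69, -1.22, -0.55, -1.40 and -0.89 in p53-null lungs, against -1.84, -2.11, -2.41, -1.78 and -2.32 in wild-type lungs. Its difference was 1.14 ± 0.19 (SE), 2.20-fold, with an adjusted p of 0.0161, and the lowest p53-null lung stood above the highest wild-type lung. Cd3d was at 0.16, -0.33, -0.13, -0.64 and -0.20 in p53-null lungs, against -0.87, -1.12, -1.44, -0.94 and -1.78 in wild-type lungs. The difference was 1.0 ± 0.20 (SE), 2.0-fold, with an adjusted p of 0.0246. Within its groups Cd3d was lowest in p53-null lung 4 and in wild-type lung 5, and the groups did not overlap. Cd247 was at -0.55, -0.97, -0.63, -1.02 and -1.15 in p53-null lungs, against -1.49, -1.86, -2.15, -1.60 and -1.86 in wild-type lungs. It differed by 0.93 ± 0.16 (SE), 1.90-fold, with an adjusted p of 0.0167, again without overlap. Cd3e, the epsilon chain, was not called. It ranged from -3.44 to -2.64 in p53-null lungs, against -4.58 to -2.44 in wild-type lungs, with a difference of 0.50 ± 0.34 (SE) and an adjusted p of 0.368. On this probe wild-type lung 5 had the highest Cd3e value of all 10 lungs and wild-type lung 3 the lowest. A second Cd3e probe, well above background in 3 p53-null and 2 wild-type lungs, differed by 0.39 and was not called. Its lowest value was that of wild-type lung 5, at -8.60. Without wild-type array 5 the difference of the first probe was 0.76, with an adjusted p of 0.0629. Without wild-type array 3 the Cd3e difference was 0.22, with an adjusted p of 0.688.

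Cd3g and Cd3d both rose and are neighbours on chromosome 9, transcribed away from each other, so the sequences at their starts are shown. RefSeq's windows on GRCm38.p6 run from 250 bases before to 50 after each start, with the 2 windows 854 bases apart; Cd3g lies at chr9:44980382-44980681 on the minus strand and Cd3d at chr9:44981536-44981835 on the plus strand. Capitals mark matches, on either strand, to 5 motifs of 6 letters. The letters searched were AGGAAG for ETS factors, TGTGGT for RUNX factors, AGATAA for the GATA family, CTTTGA for TCF/LEF factors and CAGCTG for E proteins.
Cd3g: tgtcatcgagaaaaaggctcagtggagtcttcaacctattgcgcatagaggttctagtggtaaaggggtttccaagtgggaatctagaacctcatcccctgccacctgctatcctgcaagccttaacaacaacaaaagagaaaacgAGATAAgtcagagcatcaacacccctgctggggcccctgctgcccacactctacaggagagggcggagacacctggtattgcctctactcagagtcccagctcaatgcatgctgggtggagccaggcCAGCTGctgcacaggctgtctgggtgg
Cd3d: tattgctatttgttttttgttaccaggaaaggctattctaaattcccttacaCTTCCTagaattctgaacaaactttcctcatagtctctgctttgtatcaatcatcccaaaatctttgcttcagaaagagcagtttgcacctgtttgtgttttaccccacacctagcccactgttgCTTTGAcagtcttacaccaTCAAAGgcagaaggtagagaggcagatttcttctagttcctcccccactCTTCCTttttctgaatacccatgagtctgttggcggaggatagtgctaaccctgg
The Cd3g window held 2 matches, 1 GATA and 1 E protein, and the Cd3d window held 4, an ETS pair and a TCF/LEF pair, none overlapping another. Windows were found for 24 of the 36 members (37 windows). The ETS motif was in 51.4% of the members' windows, against 35.4% of all 32851 windows, and the E protein motif in 24.3%, against 16.3%. TCF/LEF matches were in 21.6%, against 16%, GATA matches in 10.8%, against 11.2%, and RUNX matches in 16.2%, against 16.8%. These letters are a description of the windows, and neither binding nor a test of these shares was measured.

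Both chains of CD8, the coreceptor of cytotoxic T cells, rose, while CD4, that of helper cells, was not called. Cd8a was at -1.50, -1.67, -1.34, -2.09 and -1.94 in p53-null lungs, against -2.28, -2.80, -3.04, -2.30 and -3.25 in wild-type lungs. Its difference was 1.03 ± 0.22 (SE), 2.04-fold, with an adjusted p of 0.0303, and its 2 further probes were also called, at 0.99 and 1.28. All 3 Cd8a probes therefore gave the same call. The Cd8b1 probe that stood for the gene was at 1.12, 0.38, 1.24, 0.41 and 0.71 in p53-null lungs, against 0.08, -0.36, -0.72, -0.03 and -0.64 in wild-type lungs. It differed by 1.10 ± 0.22 (SE), 2.15-fold, with an adjusted p of 0.0253, without overlap. Cd4 ranged from -4.78 to -4.20 in p53-null lungs, against -5.32 to -3.86 in wild-type lungs, and differed by 0.18 ± 0.26 (SE), with an adjusted p of 0.707. A second Cd4 probe differed by 0.15. The 2 probes disagreed on wild-type lung 5, which was the highest of the 10 lungs on the first and the lowest on the second (-7.52). Without wild-type array 5 the difference of the first probe was 0.39, with an adjusted p of 0.176. Without wild-type array 1 the Cd4 difference was 0.02 and without wild-type array 3 it was 0.05. Whether the change of Cd8a differs from that of Cd4 was not tested.

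Cd8b1 is the member whose probes were called in opposite directions, so their sequences are shown. Both are 60-base probes placed by the files on mm7, the first on the plus strand at chr6:71355005-71355063 and the second on the minus strand of another chromosome at chr5:114364254-114364313. The files name the second probe Cd8b1, but given that position it may not measure Cd8b1. Capitals mark AATAAA, the usual polyadenylation signal, which is in 4.78% of all probes and in 5 of the 63 member probes (7.94%).
First Cd8b1 probe: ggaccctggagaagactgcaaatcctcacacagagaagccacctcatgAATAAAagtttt
Second Cd8b1 probe: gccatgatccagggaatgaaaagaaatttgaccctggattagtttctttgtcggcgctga
The second probe was at -0.44, -0.57, -0.71, -0.63 and -0.61 in p53-null lungs, against -0.19, -0.10, 0.04, -0.16 and -0.43 in wild-type lungs. It was lower by 0.43 ± 0.10 (SE) in p53-null lungs (log2 difference -0.43, adjusted p 0.0349 over all tested probes), and its groups did not overlap either. The first probe was named through its accession and the second through the symbol in the files. With the probes of each gene averaged, this second probe included, 13 members were called, where 3.09% of all genes rose.

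Of the 10 kinases and adaptors next to the receptor, 6 rose. Lck, the kinase that starts the signal, was at 0.90, 0.35, 0.67, 0.28 and 0.44 in p53-null lungs, against -0.06, -0.33, -0.54, 0.09 and -0.83 in wild-type lungs. It differed by 0.87 ± 0.19 (SE), 1.82-fold, with an adjusted p of 0.0313. Wild-type lung 5 was the lowest of all, and the groups did not overlap. Zap70, the kinase that binds the phosphorylated chains, was at -0.25, -0.56, -0.53, -0.75 and -0.64 in p53-null lungs, against -1.17, -1.51, -1.53, -1.36 and -1.18 in wild-type lungs. The difference was 0.80 ± 0.12 (SE), 1.75-fold, with an adjusted p of 0.0114. The SD was 0.18 in p53-null and 0.17 in wild-type lungs. Lat, the adaptor that ZAP-70 phosphorylates, was at -0.69, -1.17, -0.62, -1.17 and -0.78 in p53-null lungs, against -1.40, -1.58, -1.94, -1.55 and -2.19 in wild-type lungs. It differed by 0.85 ± 0.18 (SE), 1.80-fold, with an adjusted p of 0.0285, and p53-null lungs 2 and 4 were the lowest of their group.

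Skap1, an adaptor that links the receptor to integrin adhesion, had the largest difference of the 34 members. It was at 0.27, 0.13, 0.15, -0.26 and 0.15 in p53-null lungs, against -0.79, -1.26, -1.48, -0.98 and -1.79 in wild-type lungs. The difference was 1.35 ± 0.19 (SE), 2.54-fold, with an adjusted p of 0.0109, and 0.53 separated the lowest p53-null lung from the highest wild-type lung. Sh2d1a, the SAP adaptor of SLAM-family receptors, was at -2.31, -3.13, -2.40, -3.15 and -2.81 in p53-null lungs, against -3.40, -3.94, -3.92, -3.16 and -4.42 in wild-type lungs. It differed by 1.01 ± 0.26 (SE), 2.01-fold, with an adjusted p of 0.0476. The groups were only 0.01 apart, at p53-null lung 4 and wild-type lung 4. Prkcq, the protein kinase C theta that drives NF-kappaB signalling, was at -0.55, -0.61, -0.37, -0.51 and -0.50 in p53-null lungs, against -1.01, -0.85, -1.34, -0.84 and -0.89 in wild-type lungs. It differed by 0.48 ± 0.11 (SE), 1.39-fold, with an adjusted p of 0.0328, the second smallest difference among called members.

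The other 4 members of this group were not called. Ubash3a, a phosphatase-like inhibitor of receptor signalling, differed by 0.78 ± 0.23 (SE), with an adjusted p of 0.0649. Without wild-type array 5, where 17.1% of all genes rose, it differed by 0.92, with an adjusted p of 0.0107. No other fit with 1 array left out called Ubash3a. Trat1, an adaptor that binds the receptor, and Sh2d2a, an adaptor that binds Lck, differed by 0.22 and 0.21, with adjusted p-values of 0.647 and 0.726. In both, wild-type lung 5 was the highest of the 10 lungs. On a second Trat1 probe, which differed by 0.20, wild-type lung 5 was instead the lowest, at -5.71. With 1 array left out the Trat1 difference ran from 0.07 to 0.43 and that of Sh2d2a from 0.06 to 0.50. Themis, needed for the selection of thymocytes, was at -5.07 to -4.73 in p53-null lungs, against -5.35 to -4.18 in wild-type lungs, with a difference of -0.17 and an adjusted p of 0.669.

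Of the 7 surface and costimulatory receptors tested, 4 rose. Cd27, a costimulatory receptor of the TNF receptor family, was at -1.61, -2.24, -1.86, -2.40 and -2.33 in p53-null lungs, against -3.13, -3.61, -3.95, -2.88 and -2.83 in wild-type lungs. It differed by 1.20 ± 0.24 (SE), 2.29-fold, with an adjusted p of 0.0263. All p53-null lungs were above all wild-type lungs, of which array 3 was the lowest. Icos, the inducible costimulator of helper T cells, was at -1.53, -1.19, -1.80, -2.31 and -1.77 in p53-null lungs, against -2.80, -2.87, -2.97, -2.64 and -2.91 in wild-type lungs. Its difference was 1.12 ± 0.18 (SE), 2.17-fold, with an adjusted p of 0.0151, and the wild-type lungs lay within a narrow band while p53-null lungs 2 and 4 stood at the ends of theirs. Cd6, a receptor that binds ALCAM on other cells, was at 0.47, -0.07, 0.57, -0.18 and 0.27 in p53-null lungs, against -0.29, -0.58, -0.96, -0.29 and -0.92 in wild-type lungs. It differed by 0.82 ± 0.19 (SE), 1.76-fold, with an adjusted p of 0.038, with 0.10 between the groups.

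Thy1, a surface glycoprotein of mouse T cells that fibroblasts and other cells also carry, was at 1.93, 1.92, 2.05, 1.65 and 1.92 in p53-null lungs, against 1.39, 1.44, 1.11, 1.20 and 1.05 in wild-type lungs. It differed by 0.65 ± 0.11 (SE), 1.57-fold, with an adjusted p of 0.0154. The remaining tested receptors all had positive differences without passing the threshold. Cd2, an adhesion receptor, differed by 0.69 ± 0.19 (SE), with an adjusted p of 0.0522. Without wild-type array 5, where 17.1% of all genes rose, Cd2 differed by 0.78, with an adjusted p of 0.0118. No other fit with 1 array left out called it. Cd5, which dampens receptor signalling, differed by 0.67 (adjusted p 0.121) and Cd28, the main costimulatory receptor, by 0.61 (adjusted p 0.12).

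Among the 3 cytokine and homing receptors, Ccr7 and Il2rb rose. Ccr7, which guides naive and central memory T cells to lymph nodes and is also carried by dendritic and B cells, was at -0.55, -1.0, -0.87, -1.01 and -0.87 in p53-null lungs, against -1.82, -2.21, -2.42, -1.78 and -1.67 in wild-type lungs. It differed by 1.12 ± 0.16 (SE), 2.17-fold, with an adjusted p of 0.0114. The gap between the groups was 0.65, the widest of the 33 members with 10 values. Il2rb, the beta chain of the interleukin-2 and interleukin-15 receptors on T and NK cells, was at 0.95, 0.27, 0.50, 0.31 and 0.56 in p53-null lungs, against 0.00, -0.44, -0.53, -0.26 and -0.68 in wild-type lungs. It differed by 0.90 ± 0.16 (SE), 1.86-fold, with an adjusted p of 0.0199. Il7r, the interleukin-7 receptor chain that sustains naive T cells, was at -1.19 to -0.46 in p53-null lungs, against -2.46 to -0.74 in wild-type lungs, and was not called (difference 0.58 ± 0.30 SE, adjusted p 0.241). Its lowest value was that of wild-type lung 5, and a second probe differed by 0.57. Without wild-type array 5 the Il7r difference was 0.31, with an adjusted p of 0.248.

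Of the 7 transcription factors, 3 rose. Bcl11b, which commits progenitors to the T cell lineage, was at -1.65, -1.63, -1.77, -1.85 and -1.52 in p53-null lungs, against -2.70, -2.36, -3.41, -2.71 and -3.07 in wild-type lungs. It differed by 1.17 ± 0.18 (SE), 2.24-fold, with an adjusted p of 0.013. The p53-null lungs lay within 0.33 of each other and the wild-type lungs within 1.05. Tbx21, the T-bet factor of type 1 and cytotoxic cells, was at 0.18, -0.08, 0.02, -0.46 and -0.37 in p53-null lungs 1 to 5, against -0.84, -0.84, -0.54 and -1.25 in wild-type lungs 1, 2, 4 and 5. It differed by 0.73 ± 0.18 (SE), 1.65-fold, with an adjusted p of 0.0452. Lef1, a factor of the Wnt pathway in naive T cells that epithelial and other cells also use, was at -0.14, -0.58, -0.41, -0.26 and -0.42 in p53-null lungs, against -0.85, -0.85, -0.88, -0.73 and -0.74 in wild-type lungs. It differed by 0.45 ± 0.09 (SE), 1.37-fold, with an adjusted p of 0.026, the smallest difference among the called members.

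The other transcription factors did not pass the threshold. Tcf7, which with Lef1 maintains naive T cells, differed by -0.02 ± 0.17 (SE), with an adjusted p of 0.95, and its second probe by -0.04. Wild-type lung 5 had the highest Tcf7 value, and with 1 array left out the Tcf7 difference ran from -0.12 to 0.09. Gata3, the factor of type 2 helper cells that is also made by epithelium and innate lymphoid cells, differed by 0.70 ± 0.25 (SE), with an adjusted p of 0.114. Without wild-type array 5, whose Gata3 value of 0.09 was the highest of its group, the difference was 0.89 and the adjusted p 0.0119. In that fit 17.1% of all genes rose. Without wild-type array 3 the Gata3 difference was 0.53. Satb1, a chromatin organiser of thymocytes, differed by 0.37 (adjusted p 0.152), or 0.24 without wild-type array 5, and its second probe by 0.84 (adjusted p 0.0676 over all probes). Foxp3, the factor of regulatory T cells, was well above background in 3 p53-null and 2 wild-type lungs and differed by 0.37, with an adjusted p of 0.234.

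Taken probe by probe, 23 of the 50 testable member probes rose (46.0%) and 1, the second Cd8b1 probe on chromosome 5, fell, where 4.0% of all 31599 tested probes rose and 3.10% fell. Of the 15 members with several testable probes, Cd247 and Cd8a had every testable probe called, 6 members had none called, Cd8b1 had opposite calls from the probes named for it, and 6 had a called probe beside one that was not. In all 6 of these the second probe also had a positive difference. The second Bcl11b probe was at -3.24, -3.00, -3.20, -3.42 and -3.21 in p53-null lungs, against -3.66, -3.27, -4.43, -3.54 and -4.55 in wild-type lungs. It differed by 0.68 ± 0.24 (SE), with an adjusted p of 0.108, and here wild-type lungs 3 and 5 stood well below the other 3. The second Cd6 probe was at -3.91, -3.45, -3.99, -4.48 and -3.98 in p53-null lungs, against -4.96, -4.39, -6.00, -5.51 and -4.55 in wild-type lungs. Its difference of 1.12 ± 0.31 (SE) stood beside 0.82 for the called probe, with an adjusted p of 0.0563, and the groups overlapped.

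The second Icos probe was at -3.30, -2.20, -3.42, -3.88 and -3.48 in p53-null lungs, against -3.81, -3.82, -4.33, -2.81 and -4.27 in wild-type lungs. It differed by 0.56 ± 0.35 (SE), with an adjusted p of 0.343. P53-null lung 2 and wild-type lung 4, which shared a slide, were the highest of their groups. The second Lef1 probe was at -1.42, -1.63, -2.01, -1.43 and -1.68 in p53-null lungs, against -1.92, -1.78, -1.85, -1.76 and -1.74 in wild-type lungs. It differed by 0.18 ± 0.12 (SE), with an adjusted p of 0.357, and p53-null lung 3 was the lowest of the 10. The second Prkcq probe, 343 bases from the first on chromosome 2, was at -2.26, -2.35, -2.34, -2.06 and -2.06 in p53-null lungs, against -2.38, -2.07, -2.58, -2.26 and -2.31 in wild-type lungs. It differed by 0.10 ± 0.11 (SE), with an adjusted p of 0.589, and the groups overlapped throughout. Its highest values were on p53-null arrays 4 and 5 and wild-type array 2, the arrays high in skeletal muscle markers. On the first probe p53-null array 3 was the highest. The part of muscle RNA in either probe was not tested.

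**Figure D3:**
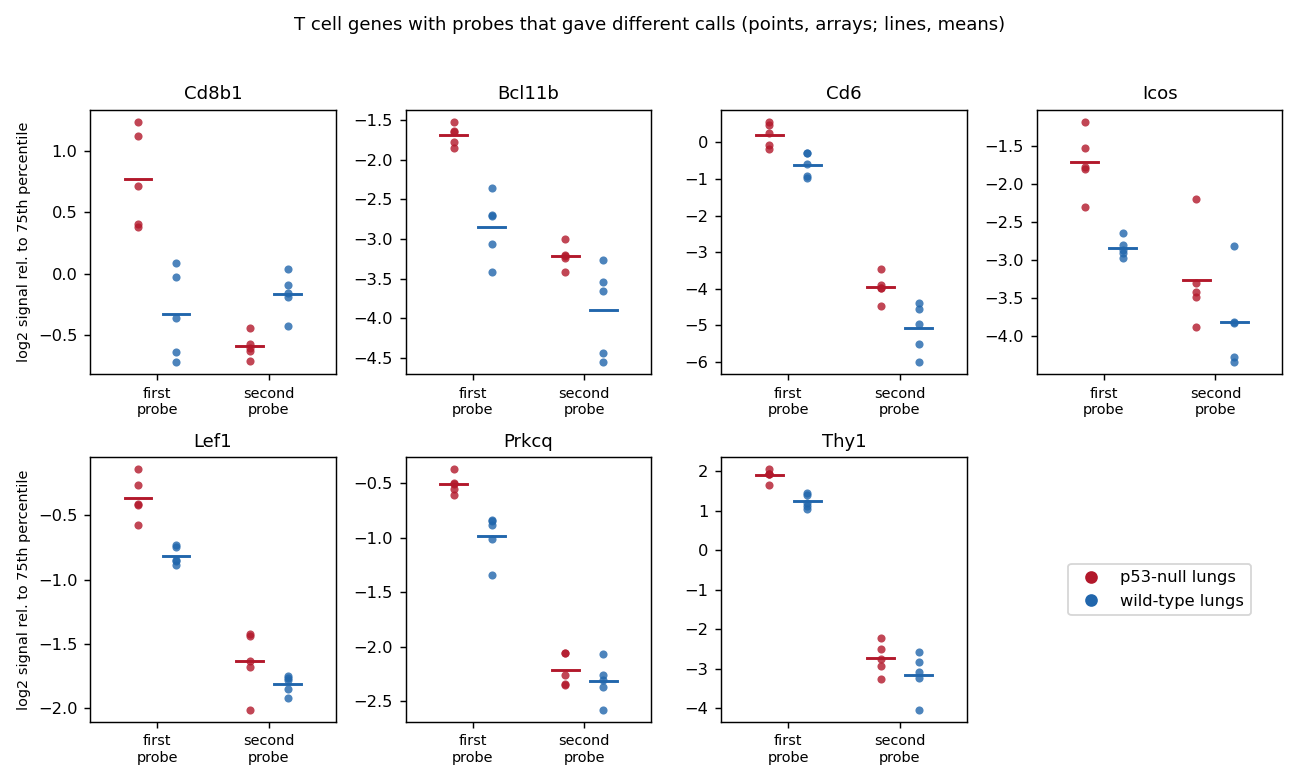
Levels of the first probe (standing for the gene) and the second testable probe of the 7 T cell genes whose probes gave different calls, as log2 signal relative to the array's 75th percentile. Points are arrays, lines are group means, and p53-null lungs stand left of wild-type lungs. The second probe named Cd8b1 runs the other way from the first, and the second probes of the other 6 genes keep the direction of the first with overlapping groups.

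The Thy1 probes lie 1163 bases apart on chromosome 9 and both contain the AATAAA letters, so they are shown as an example of a pair that differed in call. On mm7 the first is at chr9:43982862-43982921 and the second at chr9:43981253-43981698, both on the plus strand, the second covering 2 separate stretches since its span exceeds its 60 bases.
First Thy1 probe: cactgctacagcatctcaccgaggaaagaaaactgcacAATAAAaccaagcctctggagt
Second Thy1 probe: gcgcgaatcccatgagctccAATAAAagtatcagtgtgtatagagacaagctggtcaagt
The second Thy1 probe was at -2.92, -2.74, -2.22, -3.26 and -2.50 in p53-null lungs, against -2.82, -3.23, -3.08, -2.58 and -4.03 in wild-type lungs. It differed by 0.42 ± 0.28 (SE), with an adjusted p of 0.359, and wild-type lung 5 was the lowest.

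Of 4 members on chromosome 11, which also carries Trp53, Skap1, Tbx21 and Ccr7 were called and lie between 80 and 100 Mb on mm7, and Tcf7, at 52209369, was not. The labels do not say how the null allele was bred, and whether sequence around Trp53 differs between the groups was not tested. The called members outside chromosome 11 number 17.

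The other T cell genes, a second list of 59 genes, held 53 on the array and 51 that could be tested, of which 19 rose and 1 fell. Their median difference was 0.47, beside 0.05 over all tested genes, of which 4.59% rose and 2.89% fell. Of 13 further receptor-proximal genes 6 rose, with Vav1, a guanine nucleotide exchange factor, at 1.04 ± 0.15 (SE; adjusted p 0.0114). Of 8 downstream genes 2 rose, among them the Ras activator Rasgrp1 at 1.14, and Nfatc1, a calcium-dependent factor made in many cell types, fell (difference -0.48, adjusted p 0.0499). Of 11 costimulatory, inhibitory and SLAM-family receptors 6 rose, among them the inhibitory receptor Btla at 1.21, the SLAM-family receptor Ly9 at 1.18, the adhesion receptor Cd226 at 0.88 and Tnfrsf18, the GITR receptor, at 0.77. Of 9 cytokine and homing receptors 4 rose, with the chemokine receptors Ccr6 at 1.51 and Cxcr3 at 1.06. Of 10 further transcription factors 1 rose, Ikzf3 (Aiolos), at 1.44. Several of these genes, Btla, Ccr6, Ly9 and Ikzf3 among them, are also expressed by B cells.

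The 6 constant-chain genes of the receptor had no probe under their current symbols. The files name 16 probes for receptor chains by older names (Tcra, Tcrb-V13, Tcrb-J, Tcrg and the like), which were picked out after their values had been seen. Of the 13 that could be tested 6 rose and none fell, where 4.0% of all 31599 tested probes rose and 3.10% fell. The median difference of the 13 was 0.83. The Tcrb-V13 probe with the highest mean averaged 1.62 in p53-null lungs and 0.77 in wild-type lungs, a difference of 0.84 ± 0.19 (SE; adjusted p 0.0318 over all probes). Receptor chains form families of near-identical segments, so these probes cannot be assigned to single genes.

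Most B cell and neutrophil markers were also higher in p53-null lungs, while few NK and cytotoxic markers were called. For these and the other marker lists below, 4.59% of all tested genes rose and 2.89% fell. Of 12 B cell markers 10 rose, with a median of 1.20, including Pax5, the B cell lineage factor, at 1.72. The summed linear level of the B cell markers ran from 36.7 to 75.3 in p53-null lungs, against 12.1 to 27.2 in wild-type lungs. That of the 36 T cell genes ran from 19.3 to 26.7, against 11.1 to 15.5. Both lowest wild-type sums were on wild-type array 3, where the outlier-flagged spots of Ms4a1, Cd37 and Tbx21 were left out. These sums therefore lack those genes and are too low by their share. Of 11 neutrophil markers 7 rose, with a median of 1.35 and sums of 27.5 to 50.2 in p53-null lungs, against 13 to 16.7 in wild-type lungs. Of 12 NK and cytotoxic markers 2 rose (Klrg1 and Prf1) and 1 fell (Itga2), with a median of 0.47 and 11 of 12 differences positive. At an unadjusted limma p below 0.05, 5 of the 12 were higher and 1 lower, against 15.2% and 12.4% of all genes. The NK sums ran from 5.13 to 7.02 in p53-null lungs, against 2.78 to 6.24 in wild-type lungs. The part of these marker lists in the T cell result was not tested.

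Markers of thymus and of lymph node stroma were also examined. None of the 5 tested thymus markers was called by limma (median -0.04, 2 of 5 positive, 1 higher at an unadjusted p below 0.05). The thymus sums ran from 2.97 to 4.03 in p53-null lungs, against 2.38 to 2.97 in wild-type lungs. Cd1d1, also made outside the thymus, had a mean log2 level of 1.62 in p53-null lungs, against 1.30 in wild-type lungs, and made up most of these sums, since no other thymus marker had a mean above -2.56 in either group. The recombinase genes Rag1 and Rag2 were not well above background on any array. None of the 5 lymph node stroma markers was called (median 0.30, 1 higher at an unadjusted p below 0.05), with sums of 3.54 to 8.35 in p53-null lungs, against 3.21 to 5.01 in wild-type lungs. Glycam1, made by lymph node venules, was well above background in 5 p53-null and 3 wild-type lungs and differed by 2.11, with an adjusted p of 0.224. The part of lymph node tissue in the T cell result was not tested. Dendritic cell markers rose in 2 of 7 cases (Clec9a and Siglech), and among 7 monocyte and macrophage markers 1 rose (Csf1r) and 1 fell (Marco). Lung markers held 1 lower gene of 10, Col1a2, with a median of -0.07. Of 6 tested red cell and platelet markers 1 rose, Itga2b, and none of the 6 squamous epithelium or 9 skeletal muscle markers was called (0 at an unadjusted p below 0.05).

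**Figure D4:**
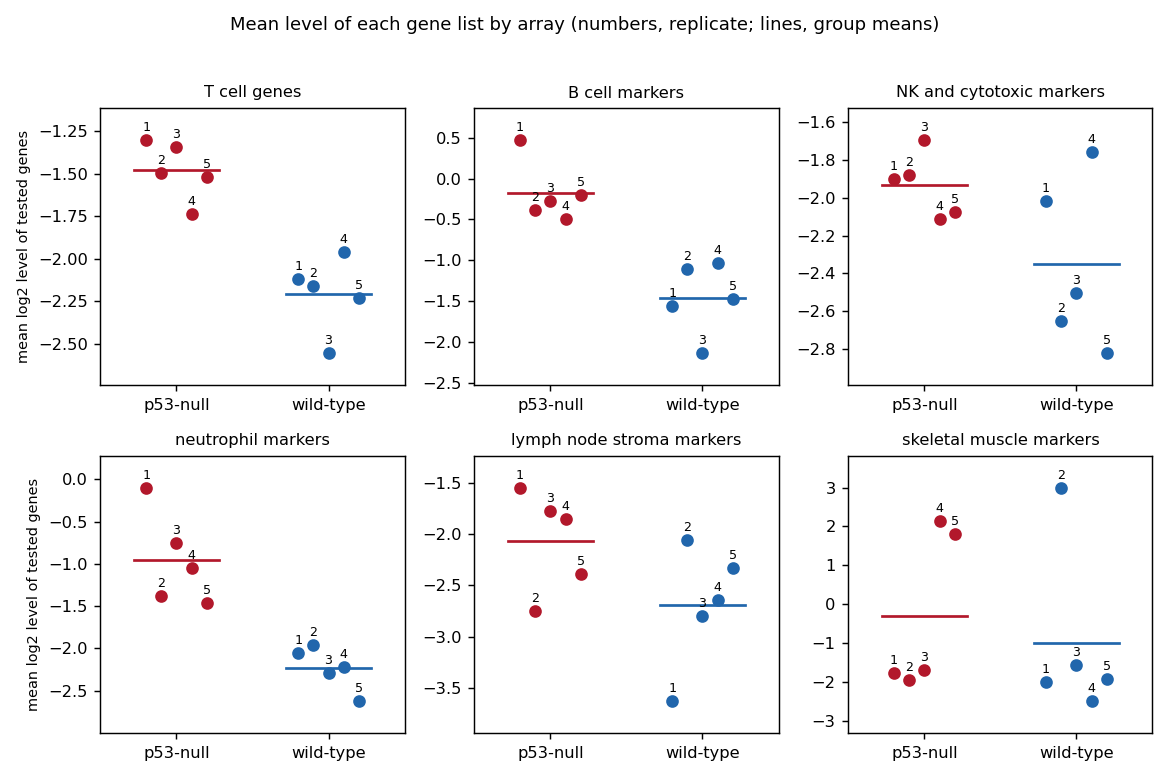
Mean log2 level of the tested genes of 6 lists on each array, with p53-null lungs left of wild-type lungs, numbers giving the replicate and lines the group means. The T cell, B cell and neutrophil means do not overlap between groups, and the skeletal muscle mean is high on p53-null arrays 4 and 5 and wild-type array 2. Flagged spots are left out, so on wild-type array 3 the T cell mean lacks Tbx21 and the B cell mean lacks Ms4a1 and Cd37.

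How many T cell genes were called depended on single arrays, while the median difference stayed between 0.68 and 0.83 when any 1 array was left out. Cd3g, Zap70, Skap1, Icos, Ccr7 and Bcl11b were called in all 10 fits with 1 array left out, Cd247 and Thy1 in 9, Il2rb in 7 and Cd8b1 in 5, and the other 10 in 1 to 4. Without p53-null array 3, 6 members were called, where 0.663% of all genes rose. The count was 9 without p53-null array 1 (1.21% of all genes), 12 without p53-null array 2 (1.28%) and 8 without p53-null array 5 (1.13%). It was 9 without wild-type array 2 (1.22%) and 8 without wild-type array 3 (1.01%), which alone was scanned on the second day. It was 15 without p53-null array 4 (1.69%), 17 without wild-type array 1 (3.07%) and 16 without wild-type array 4 (2.0%). Without wild-type array 5 it was 23, where 17.1% of all genes rose, and all 20 called members were among them.

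Without the 3 arrays high in skeletal muscle genes, all 34 members had positive differences, with a median of 0.93. None was called by limma at the adjusted threshold, where 0.0189% of the 21115 genes tested rose, and 24 members had an unadjusted p below 0.05. Slides fell into a lower and a higher range of numbers. When that range entered the fit as a block, 13 members were called (2.05% of all genes), and the median was 0.76. Within the lower range the median was 0.74 with 0 members called by limma (0.0237% of all genes; 24 members at an unadjusted p below 0.05), and within the higher range, which held 1 p53-null and 2 wild-type lungs, it was 0.73 with 0 called (0.00% of all genes; 6 unadjusted). With slide as a fixed block, the comparison rests on the 1 slide that held both groups (p53-null lung 2 and wild-type lung 4). There no gene passed the threshold (0.00% of all genes; 3 members at an unadjusted p below 0.05), the members' median difference was 0.48, and all 20 called members were higher in the p53-null lung. Other settings of the whole data gave 19 called members with a normexp background (3.75% of all genes), 19 with quantile normalization (4.15%) and 12 with scaling by the array median (1.79%). The count was 12 with no signal filter (1.33%), 21 with genes well above background on all 10 arrays (6.66%), 17 with slide as a random block (3.39%) and 8 with scan day as a block (1.01%). Since wild-type array 3 alone was scanned on the second day, the scan-day block is the same fit as leaving that array out. The count was 21 with a trended, robust variance model (6.07%), 24 with array weights (17.3%) and 15 with the trend on probe GC content removed (4.44%).

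**Figure D5:**
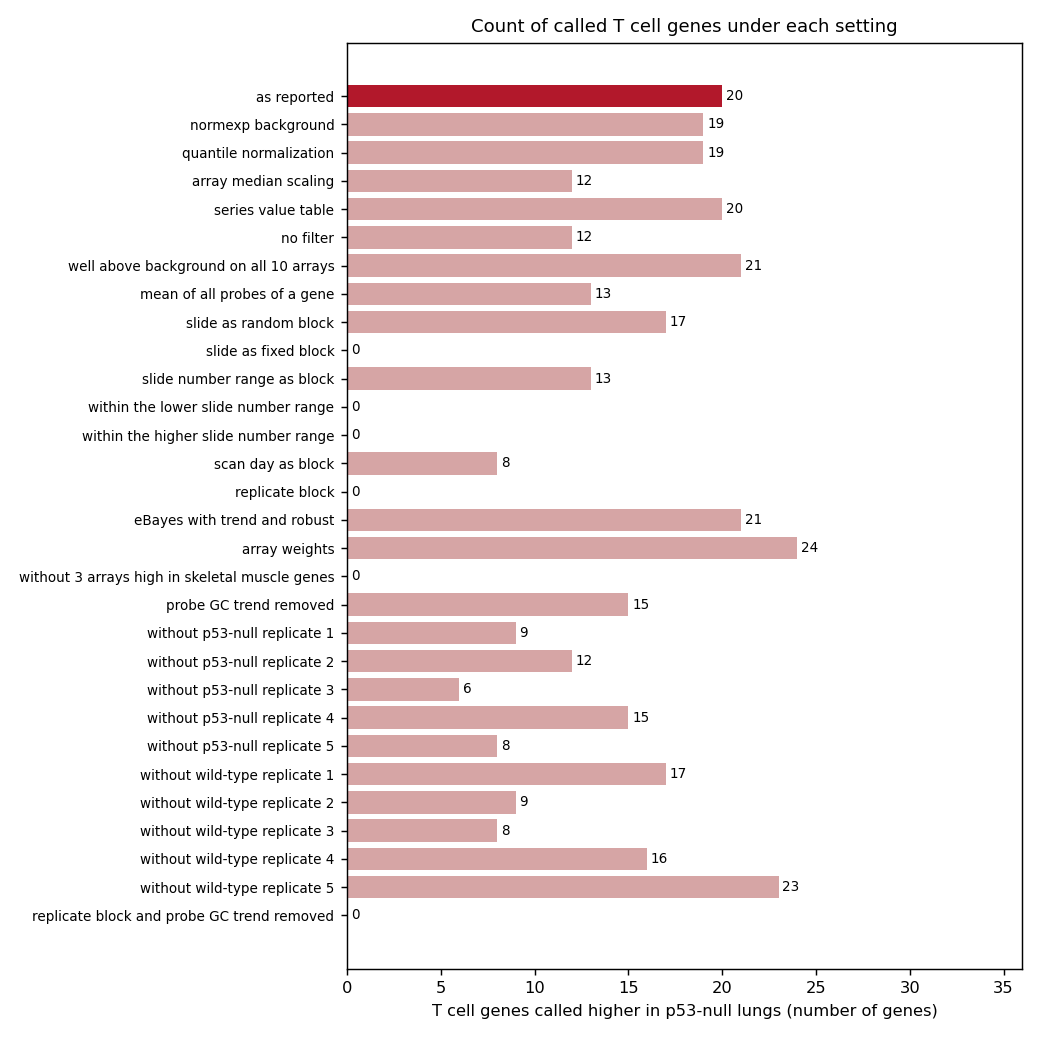
Number of T cell genes called higher in p53-null lungs (adjusted p below 0.05, bar length) as reported and under each alternative. The count is 20 as reported, 6 to 23 with 1 array left out, and 0 within single slide ranges, with slide as a fixed block or a replicate block, and without the 3 arrays high in skeletal muscle genes.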

How the data were processed

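RNA from each whole lung was Cy3-labelled and run on its own single-colour Agilent array, per the labels. Per the submitters' processing notes, the scans went through Agilent Feature Extraction 9.5. The deposited intensity had been background-subtracted in that step, per the file headers, and the deposited value table held the same signals (largest difference 0). After dividing by the 75th percentile of 43379 non-control spots of the array, log2 was taken. Spots with outlier flags (51 to 719 an array) were dropped and repeat spots averaged. Where a gene had several probes, the one with the highest mean stood for it. A gene was tested if that probe stood well above background on 5 or more of 10 arrays, which held for 21116 of 27670 genes; 31599 probes were also tested singly. The number of arrays limits the precision.

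The test of p53-null against wild-type lungs used lmFit and eBayes of limma 3.58.1 (R 4.3.3), and p-values were adjusted by Benjamini and Hochberg over all tested genes or probes, with 0.05 as the threshold. The code was tested on simulated data. Probe names came through accessions, symbols or synonyms of a RefSeq table, and probe positions (mm7) and sequences from the files. Python 3.11.15, pandas 2.3.3, numpy 2.4.6 and matplotlib 3.10.9 served for summaries and plots. The members and the lists were chosen with earlier results of these data known. Values on all 10 arrays are given for called members and for those whose probes disagreed; of the other T cell genes, called genes are named in order of p, up to 10 (with an exception that is not reported here), and marker lists are given by counts and sums. Nfatc1 and the marker genes singled out for small counts were named after their values were seen. The listed genes with no match, such as Ccl21a, Ly6g, Hbb-b1 and Ear2, were not analysed here. Other settings tried were other scalings, a normexp background, other filters, averaged probes, blocks for slide, range of slide numbers, scan day and replicate, other variance models, a correction for probe GC content, and leaving out single arrays.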

Additional observations from a re-analysis of the deposited data

Results flagged for a closer look

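Values were flagged where an array stood apart from the other 4 of its group by Dixon's criterion at 95% (0.71 for 5 arrays), and chance flags about 1 in 20 groups; of 126 groups screened 5 were flagged. Skap1 on p53-null array 4, at -0.26, lay below the other p53-null arrays, of which the nearest was at 0.13, and still above every wild-type array. A further Trat1 probe, at 48495568 on mm7, was at -4.52 on p53-null array 5, above the other p53-null arrays.

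The remaining flags were in marker lists and not in T cell genes. The mean level of the skeletal muscle markers was 2.99 on wild-type array 2, against -1.57 on the nearest other wild-type array. The mean level of the squamous epithelium markers was 1.12 on p53-null array 5, where the nearest other p53-null array was at -3.64, and 2.35 on wild-type array 2, where the nearest other wild-type array was at -3.55. Values without these arrays stand beside the T cell counts above, and their part in those counts was not tested.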

How the results depend on the processing

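The members' median difference stayed positive under every alternative run, and no called member changed direction. With 1 array left out it ran from 0.68 to 0.83, the members called from 6 to 23, the member probes called from 6 to 27 and all genes called from 192 to 6619. Scaling by the array median gave 12 members and 583 genes, no signal filter 12 members, 14 member probes and 538 genes, and averaged probes 13 members and 998 genes. The slide number range as a block gave 13 members, 15 probes and 697 genes. The scan day as a block, the same fit as leaving out wild-type array 3, gave 8 members, 10 probes and 322 genes. Array weights gave 6685 genes. Counts of 0 members and 0 member probes by limma came with slide as a fixed block (0 genes in all, median 0.48, 3 members at an unadjusted p below 0.05), within the lower slide number range (16 genes, 24 members unadjusted) and within the higher range (0 genes, 6 members unadjusted). The same held without the 3 arrays high in skeletal muscle genes (10 genes, 24 members unadjusted). Arrays with the same number in both groups did not deviate together (correlations of -0.22 to 0.00, own number best in 0 of 5). These correlations show no shared variation by number, and cannot tell whether the mice were paired by design. The replicate block gave 0 members, 0 probes and 26 genes (24 members unadjusted). With the probe GC trend also removed, chosen after seeing the data, it gave 0 members, 0 probes and 28 genes (25 unadjusted). The cause of these changes was not tested, and fits that left out arrays also had fewer arrays. The deposited value table held the same signals, so it gave the same fit and the same 20 members, and is no further check. With the probe GC trend removed 15 members were called, all among the 20. Over the single members and alternatives 721 calls stayed on the same side of the threshold, 253 lost it and 10 gained it. The 721 include 34 from the deposited value table, which could not differ. These counts also hold the scan-day block beside the fit without wild-type array 3, which is the same fit counted again.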
